A study of Mus musculus with 4 samples.

Results

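The Flag ChIP-seq peaks of Nynrin were examined at 9 protein-coding genes of red cell identity and haemoglobin: Gata1, Klf1, Nfe2, Tfrc, Slc4a1, Blvrb, Hba-a1, Hbb-bs and Hbb-bt. They were taken by name out of 21887 protein-coding genes on chromosomes 1 to 19, X and Y, and for each gene every peak in its body and within 50 kb of either end was collected. The cells were lineage-negative bone-marrow cells, the marrow fraction left after cells bearing mature-lineage surface markers are removed, from 8-week-old C57BL/6 mice of genotype 3xFlag-Nynrin-Tg, in which a transgene supplies Nynrin fused to a triple Flag tag. Of 4 libraries in the series, the peak lists of 2 Flag ChIP libraries (replicates 1 and 2) were used, while the input libraries were not analysed here. All libraries carried the transgene, no untagged library was used here, and the sources used here do not name the promoter that drives the transgene. The labels do not state whether each replicate was a separate mouse, so the spread between them may be technical. Peak lists hold no expression values, so the identity of the cells could not be checked against marker genes.

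Red cells arise from marrow progenitors under the transcription factors GATA1, which binds GATA sequences, and KLF1, which binds CACCC sequences, while NFE2 acts with small Maf proteins at the globin loci and in platelet precursors. Their targets include the globin genes, which encode the chains of haemoglobin, the anion exchanger gene Slc4a1 (band 3 of the red cell membrane) and the transferrin receptor gene Tfrc, through which cells take up iron. Blvrb encodes biliverdin reductase B, a flavin reductase abundant in red cells. The labels say that promoter binding sites of the tagged protein were sought, so the question was whether and where these genes carried peaks.

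A gene was counted as called when both replicates had a peak summit within 1000 bp of an end of the gene. Peaks of the replicates did not have to overlap or lie at the same end. Nfe2, Tfrc and Blvrb were called, and Gata1, Klf1, Slc4a1, Hba-a1, Hbb-bs and Hbb-bt were not. Thus 3 of 9 genes (33.3%) were called, against 31.9% of all protein-coding genes, a share near the background. Where −log10 q had to be at least 5 in both lists, the same 3 were called, against 21.1% of all genes. Where fold enrichment had to be at least 5, Nfe2 and Blvrb were, against 9.52%, and where the peaks had to cover 50% of each other, Tfrc alone was, against 18%. The 9 genes fell into 3 kinds of territory. Nfe2, Tfrc and Blvrb had a shared peak at an end, Klf1 and Slc4a1 lay among peaks with none at their own ends, and Gata1 and the 3 globin genes had no peak of replicate 1 within 50 kb. Replicate 2 held 25787 peaks and replicate 1 held 12702, and the depth of the libraries is unknown, so a peak found in replicate 2 alone was given as such throughout.

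The promoters are shown first, because the genes with and without a peak differed in base composition. The RefSeq promoter table (GRCm38.p6, the assembly behind mm10) matched 7 of the 9 genes, all but Nfe2 and Slc4a1. The 250 bases before the most upstream start site are given below, 5′ to 3′, for 2 called genes (Blvrb and Tfrc), for Klf1, whose peak lay inside the gene, and for 3 genes without a nearby shared peak. Capitals mark matches on either strand. For GATA factors the letters searched were AGATAA, or the same word with T in first place. For KLF factors they were CACCC. The CCAAT box, the GC box (CCGCCC) and the TATA box (TATAA) were searched as well, and no match overlapped another.
Blvrb (chr7:27447728-27447977, plus strand): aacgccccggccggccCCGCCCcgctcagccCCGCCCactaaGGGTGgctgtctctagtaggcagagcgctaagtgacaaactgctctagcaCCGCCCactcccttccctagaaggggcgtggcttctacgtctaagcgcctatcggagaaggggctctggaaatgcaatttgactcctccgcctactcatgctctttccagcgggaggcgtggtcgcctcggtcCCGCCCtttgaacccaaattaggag
Tfrc (chr16:32608646-32608895, plus strand): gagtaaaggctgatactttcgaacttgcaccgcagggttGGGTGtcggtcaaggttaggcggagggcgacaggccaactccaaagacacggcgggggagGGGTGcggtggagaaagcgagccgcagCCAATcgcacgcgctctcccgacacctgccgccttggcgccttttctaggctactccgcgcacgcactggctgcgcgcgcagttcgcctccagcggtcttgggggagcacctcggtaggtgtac
Klf1 (chr8:84901732-84901981, plus strand): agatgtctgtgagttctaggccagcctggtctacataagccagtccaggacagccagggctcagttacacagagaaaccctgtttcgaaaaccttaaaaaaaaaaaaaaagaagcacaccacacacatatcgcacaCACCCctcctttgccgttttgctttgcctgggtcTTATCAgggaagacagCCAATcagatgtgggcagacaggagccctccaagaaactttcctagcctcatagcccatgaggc
Gata1 (chrX:7967911-7968160, minus strand): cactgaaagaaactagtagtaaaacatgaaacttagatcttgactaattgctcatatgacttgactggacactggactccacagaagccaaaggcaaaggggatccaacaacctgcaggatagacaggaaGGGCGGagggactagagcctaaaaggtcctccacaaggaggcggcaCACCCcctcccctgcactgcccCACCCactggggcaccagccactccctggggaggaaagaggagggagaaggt
Hba-a1 (chr11:32283422-32283671, plus strand): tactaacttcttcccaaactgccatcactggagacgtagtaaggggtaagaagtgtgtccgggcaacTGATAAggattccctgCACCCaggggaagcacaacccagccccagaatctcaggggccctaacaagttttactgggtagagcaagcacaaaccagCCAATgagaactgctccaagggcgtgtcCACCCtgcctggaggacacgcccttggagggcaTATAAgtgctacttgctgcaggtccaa
Hbb-bs (chr7:103827929-103828178, minus strand): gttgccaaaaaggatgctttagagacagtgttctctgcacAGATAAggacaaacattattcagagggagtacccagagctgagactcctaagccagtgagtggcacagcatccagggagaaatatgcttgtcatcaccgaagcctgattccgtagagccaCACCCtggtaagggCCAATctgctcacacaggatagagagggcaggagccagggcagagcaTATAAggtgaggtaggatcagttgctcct

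The Blvrb stretch held 4 CCGCCC matches and 1 CACCC, with no GATA, CCAAT or TATAA match. Tfrc held 2 CACCC matches and 1 CCAAT. Hba-a1 and Hbb-bs each held 1 GATA match, 1 CCAAT and 1 TATAA, with 2 CACCC matches in Hba-a1 and 1 in Hbb-bs. The Klf1 stretch held 1 GATA match, 1 CACCC and 1 CCAAT, and that of Gata1 held 2 CACCC and 1 CCGCCC. Hbb-bt, not printed, held 3 CACCC, 3 CCAAT and 2 TATAA matches and no GATA match. Among the same 250-base stretches of 17492 protein-coding genes, 15.0% held the GATA sequence, 53.3% CACCC, 36.5% CCAAT, 42.7% CCGCCC and 21.3% TATAA. Where both replicates had a summit within 1000 bp of a start site, 7.62% held the GATA sequence and 64.0% CCGCCC. Among the other genes these shares were 18.8% and 31.5%. The CACCC sequence was held by 54.9% of the former and 52.4% of the latter, CCAAT by 38.4% and 35.5%, and TATAA by 10.2% and 27.1%. Such matches describe the letters only.

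CpG content was higher at the 2 called genes with a promoter entry than at the 5 uncalled ones. The ratio of observed to expected CpG over 300 bases (250 before to 50 after the start site) was 0.94 at Tfrc and 0.68 at Blvrb. It was 0.19 at Hba-a1, 0.17 at Gata1, 0.15 at Klf1, 0.11 at Hbb-bs and 0.06 at Hbb-bt, all 5 within the lowest of 4 equal classes of genes, which ends at 0.22. By the start-site rule, that is a summit of both replicates within 1000 bp of a start site, 34.5% of the genes with a promoter entry were called, and of the 7 members Tfrc and Blvrb were. Over the 4 classes of CpG ratio the shares of all genes were 2.86%, 15.7%, 49.3% and 70.1% from lowest to highest. The 5 CpG-poor members thus belonged to the class in which 2.86% of genes were called. The part of base composition in these calls was not tested.

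**Figure D1:**
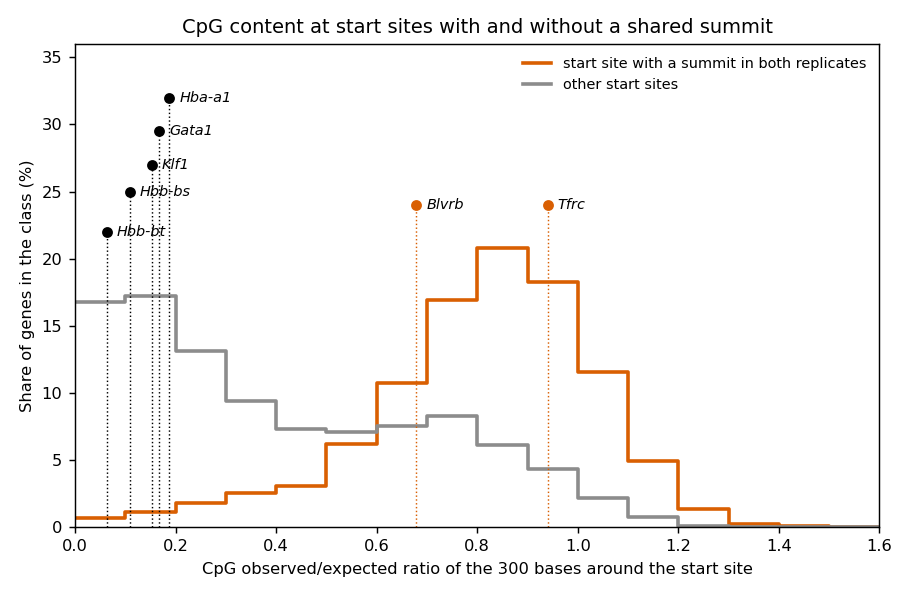
Distribution of the CpG observed/expected ratio around the start site (x axis) for genes with a summit of both replicates within 1000 bp of a start site (orange line) and for other genes (grey line), as percent of each class (y axis). Dots and dotted lines mark the 7 members with a promoter entry, at heights chosen for legibility. Blvrb and Tfrc lie under the orange distribution, and Gata1, Klf1, Hba-a1, Hbb-bs and Hbb-bt lie below 0.2.

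Fold enrichment below is the authors' value for each peak, a ratio to the background that the peak caller set. Since the lists differ in length and scale, its size was not compared between lists. The percentile rank of a peak within its own list is given for shared peaks at or inside a member and for some others. Few of the peaks in the 9 territories lay at an end of a member. Replicate 1 had 24 peaks there, of which 3 lay at an end of a member, 10 at an end of another protein-coding gene and 11 away from gene ends. Replicate 2 had 41 peaks, of which 3, 16 and 22 lay in these classes. Gene ends here are the gene bounds, so some peaks of the last class lay near a start site listed elsewhere. For example, summits in Ubtf lay 227 bp (replicate 1) and 193 bp (replicate 2) from such sites. Every one of the 24 replicate 1 peaks overlapped a peak of replicate 2, where 89.2% of the whole replicate 1 list did. Among the 41, overlap with replicate 1 was found for 23 (56.1%), where 41.8% of the whole replicate 2 list had it. In the 24 shared pairs the summits lay a median of 107 bp apart, against 120 bp over all 11327 shared peaks. A shared peak lay in or within 50 kb of 5 of the 9 genes (Klf1, Nfe2, Tfrc, Slc4a1 and Blvrb), against 60.8% of all genes.

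**Figure D2:**
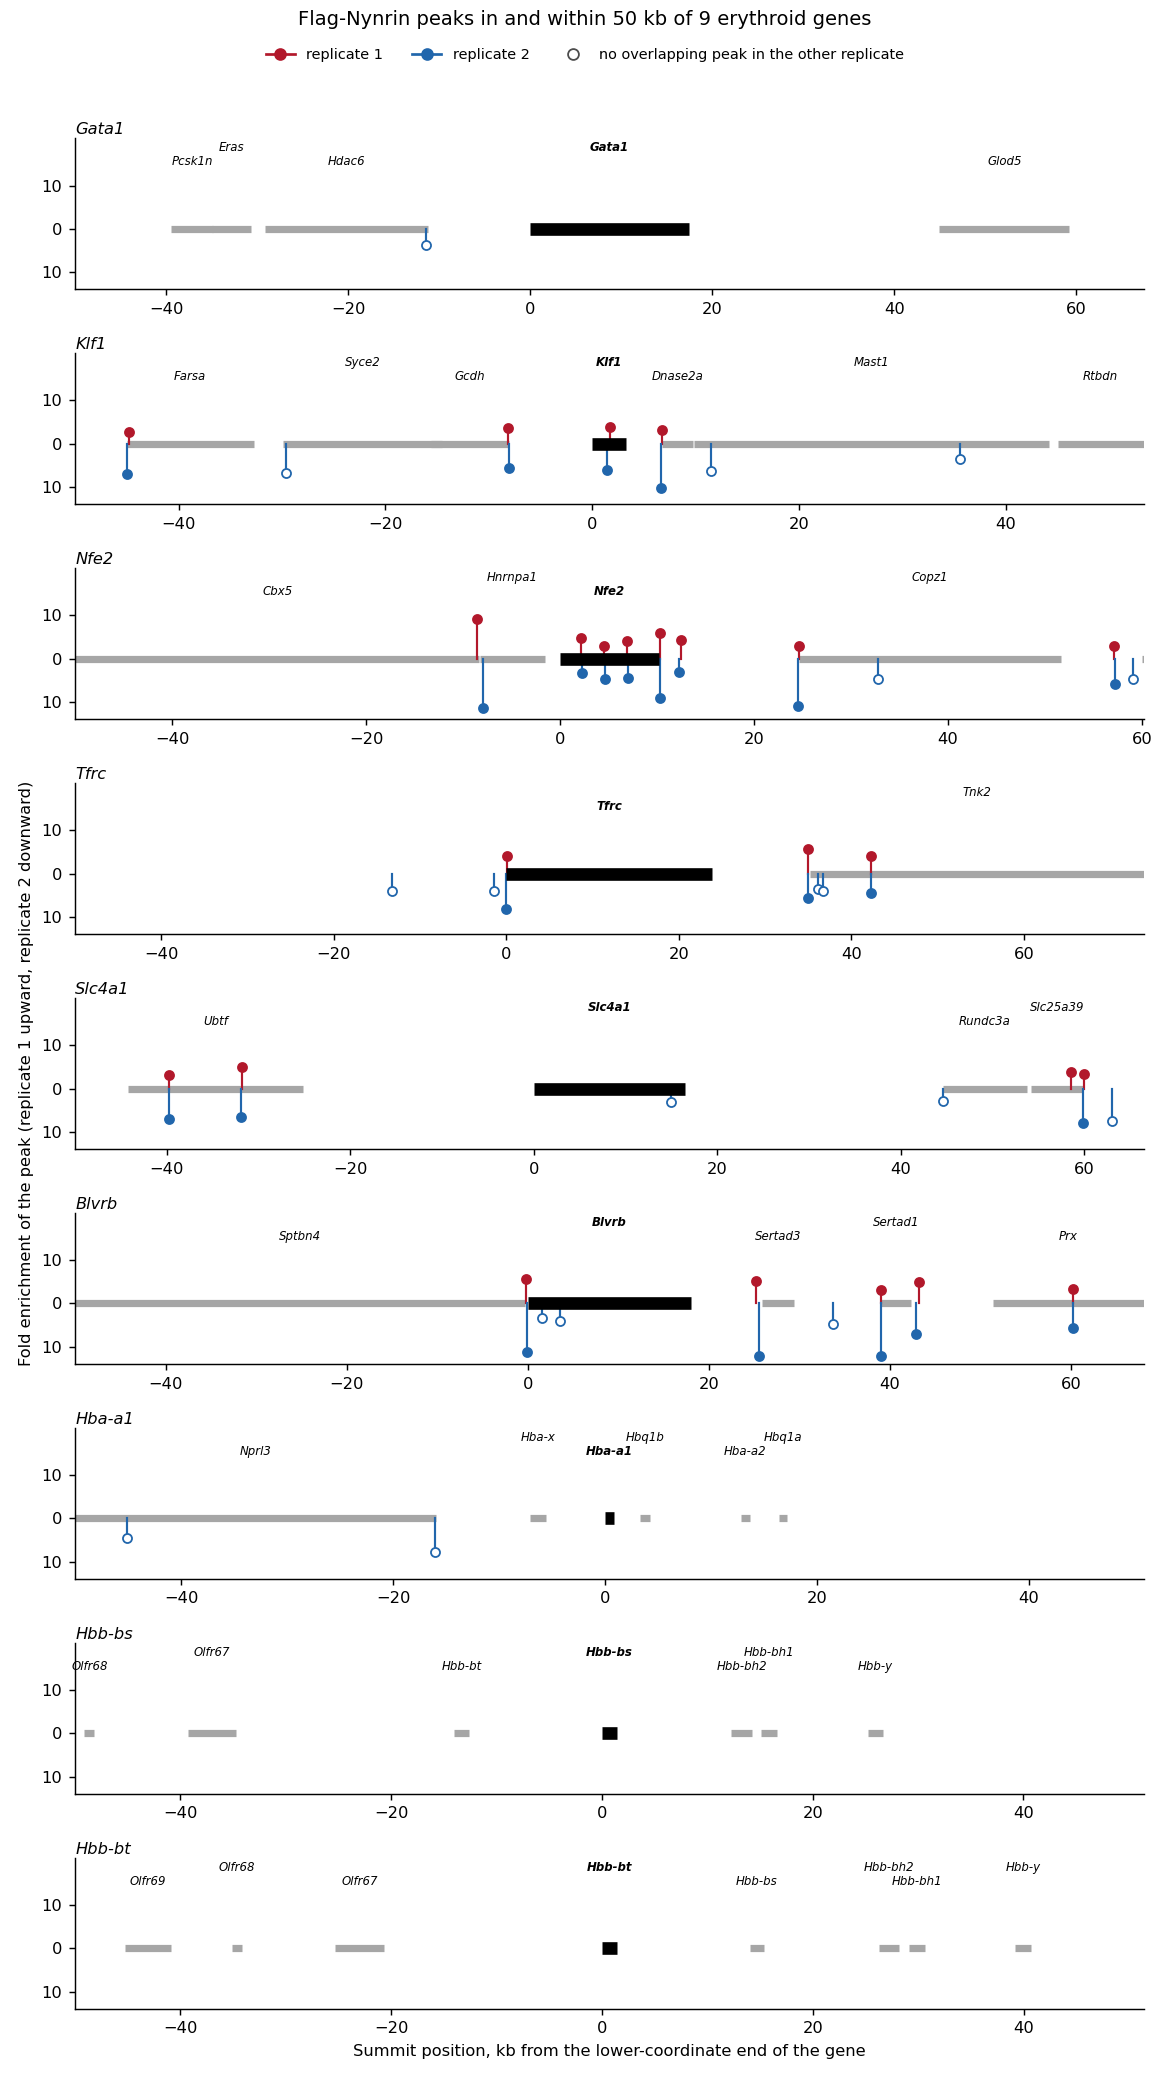
Peaks in and within 50 kb of each gene. The x axis gives the summit's distance in kb from the lower-coordinate end of the gene, and the y axis the authors' fold enrichment, upward for replicate 1 (red) and downward for replicate 2 (blue). Filled circles overlap a peak of the other replicate, open circles do not, black bars are the genes and grey bars other protein-coding genes. Nfe2 carries a row of filled circles along its length, and both beta-globin panels are empty.

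Of the 3 transcription factor genes among the members, Nfe2 had the most peaks, 8 in replicate 1 and 10 in replicate 2 within 50 kb, against 4 and 7 at Klf1 and 0 and 1 at Gata1. Other erythroid factor genes had as many or more, for example 9 and 14 at Stat5b and 9 and 13 at Zbtb7a. Nfe2 lies on chromosome 15 at 103248212 to 103258403. At its higher-coordinate end the summits were 152 bp outside the gene in replicate 1 (fold enrichment 5.96, −log10 q 13.3, rank 90.0%) and 89 bp outside it in replicate 2 (9.03, 20.9, 91.2%). The ranks were therefore high in both lists. Inside the gene 3 more shared peaks followed. Their summits lay 2149, 4561 and 6946 bp above the lower-coordinate end in replicate 1, with fold enrichments of 4.67, 2.93 and 4.15. In replicate 2 they lay at 2229, 4602 and 7048 bp, with 3.45, 4.78 and 4.52. These internal peaks were of low to middle rank, between 7.98% and 69.4% in replicate 1 and between 14.5% and 52.8% in replicate 2. A further shared peak lay 2337 bp (replicate 1) and 2038 bp (replicate 2) beyond the higher-coordinate end. Counting summits inside the gene or within 1000 bp of it, Nfe2 had 4 shared peaks. That count was reached by 0.617% of all protein-coding genes and by 9 of 6815 genes (0.132%) of 5000 to 20000 bp. The count of 4 and the length range were set after the Nfe2 value was seen.

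The neighbours of Nfe2 carried peaks as well. A shared peak spanned the adjoining ends of Cbx5, which encodes a heterochromatin protein, and Hnrnpa1, a splicing regulator gene. Its summit lay inside Cbx5 in replicate 1 and inside Hnrnpa1 in replicate 2. It ranked at 99.5% in replicate 1 (fold enrichment 9.07) and 97.3% in replicate 2 (11.4). The peak at the start of Copz1, a vesicle coat gene, ranked at 10.2% in replicate 1 (3.02) and at 96.9% in replicate 2 (10.9), so its rank differed widely between the lists. A shared peak outside any protein-coding gene lay 46931 bp beyond the gene in replicate 1 and 47000 bp in replicate 2. Replicate 2 alone had a peak inside Copz1 and another near Gpr84, a receptor gene for medium-chain fatty acids.

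Klf1 had a shared peak inside the gene and none over its promoter. Klf1 is on the plus strand of chromosome 8, at 84901982 to 84905291. The peak ran from 84903291 to 84903899 in replicate 1 (fold enrichment 3.83, −log10 q 4.03, rank 41.0%) and from 84902722 to 84903817 in replicate 2 (6.11, 10.4, 71.9%). Its summits were 1735 and 1418 bp downstream of the start site. Neither replicate had a peak over any of the 250 bases printed above. A shared peak with its replicate 1 summit inside the gene was found in 24.9% of all protein-coding genes. Among the members it was found in 3 of 9 (Klf1, Nfe2 and Tfrc). At Tfrc this was the peak at the start site, whose replicate 2 summit lay outside the gene. With a window of 3000 bp in place of 1000 bp, Klf1 became a called gene. The gene is 3310 bp long, so any peak inside it meets that wider rule.

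The Klf1 territory was crowded with peaks at other genes. At the start of Dnase2a, which encodes the lysosomal nuclease with which macrophages digest the nuclei expelled by red cell precursors, the summits were 47 bp (replicate 1) and 159 bp (replicate 2) upstream. The fold enrichment there was 3.13 (rank 13.8%) in replicate 1 and 10.4 (95.3%) in replicate 2. Shared peaks also lay at the starts of Gcdh, a mitochondrial dehydrogenase gene (3.62 and 5.68), and Farsa, a tRNA synthetase subunit gene (2.77 and 6.99). Their ranks were 31.7% and 67.3% at Gcdh, and 5.10% and 79.8% at Farsa. In replicate 2 alone, peaks lay at the start of Syce2, a meiosis gene (6.91), and at 2 places inside the kinase gene Mast1 (6.38 and 3.45), the weaker 141 bp upstream of a listed Mast1 start site. In each of the 3 shared neighbour peaks and in the peak inside Klf1, the rank was higher in replicate 2 than in replicate 1. The median ranks of all shared peaks differed in the same direction, 52.5% in replicate 1 and 77.6% in replicate 2.

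Gata1, on the minus strand of the X chromosome at 7959260 to 7976663, had no summit in or within 1000 bp of the gene in either replicate. Its listed start site, at 7967910, lies inside these bounds, and no summit lay within 1000 bp of it. The one peak in its territory was in replicate 2 alone, 11458 bp below the gene. That peak (fold enrichment 3.72, −log10 q 3.39, rank 23.5%) lay 87 bp inside the start of Hdac6, which encodes a tubulin deacetylase. The nearest shared peak was 60477 bp away, against a median of 18235 bp over all protein-coding genes.

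Tfrc and Blvrb carried their peaks at the start site. Tfrc is on the plus strand of chromosome 16, at 32608896 to 32632794. Its peak ran from 32608384 to 32609603 in replicate 1 (fold enrichment 4.18, −log10 q 7.70, rank 54.2%) and from 32608291 to 32609877 in replicate 2 (8.24, 17.8, 87.4%). The summits were 61 bp downstream of the upstream start site in replicate 1 and 73 bp upstream of it in replicate 2, and both peaks covered all of the stretch printed above. Replicate 2 alone had weaker peaks 1409 and 13298 bp upstream, both with a fold enrichment of 3.99. The only other gene in the territory was Tnk2, a tyrosine kinase gene. A shared peak lay at its lower-coordinate end (5.61, rank 86.2%, and 5.58, rank 65.9%), and another lay inside it (4.09 and 4.50). Inside Tnk2, 2 more peaks were found in replicate 2 alone (3.55 and 3.99).

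Blvrb is on the plus strand of chromosome 7, at 27447978 to 27465981. Its peak ran from 27447295 to 27447950 in replicate 1 (fold enrichment 5.78, −log10 q 12.5, rank 88.5%) and from 27447093 to 27448580 in replicate 2 (11.2, 29.4, 97.1%). The summits were 238 and 100 bp upstream of the start, inside the printed stretch, of which 89.2% was covered in replicate 1 and 100% in replicate 2. The same peak lay within 1000 bp of the higher-coordinate end of Sptbn4, which encodes a spectrin of neurons. It therefore cannot be assigned to 1 of the 2 genes. Replicate 2 alone had 2 further peaks inside Blvrb (3.45 and 3.99), the second of them 930 bp upstream of another listed start site. Farther along, shared peaks marked Sertad3 (5.26 and 12.2) and both ends of Sertad1, genes for transcriptional coregulators. At the Sertad1 start the values were 3.02 (rank 10.2%) in replicate 1 and 12.2 (98.5%) in replicate 2. Beyond its other end they were 4.98 and 7.17. Another shared peak lay inside Prx, a myelin protein gene (3.31 and 5.67). A peak of replicate 2 alone lay outside any protein-coding gene, 15724 bp above Blvrb (4.74).

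The membrane gene Slc4a1, on chromosome 11 at 102348820 to 102365281, had no shared peak in the gene or near it. Replicate 2 alone had a weak peak inside it, 1497 bp from the higher-coordinate end (fold enrichment 3.19, −log10 q 2.16, rank 7.13%). The nearest shared peak was 31760 bp below the gene, in Ubtf, which encodes a transcription factor of ribosomal RNA genes. Its fold enrichments were 4.93 (replicate 1) and 6.64 (replicate 2), with summits 227 bp downstream and 193 bp upstream of listed Ubtf start sites. A second shared peak inside Ubtf had values of 3.22 and 7.17. Above Slc4a1, replicate 1 had 2 peaks at Slc25a39, a mitochondrial glutathione carrier gene (3.90 and 3.31), which a single wider peak of replicate 2 spanned (8.06). A high-ranking peak of replicate 2 alone lay outside any protein-coding gene, 46572 bp above Slc4a1 (7.44, rank 82.8%), and a low-ranking one at an end of Rundc3a (2.84, rank 1.89%).

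The globin genes had no peak. Hba-a1, which encodes the adult alpha chain, lies on the plus strand of chromosome 11 at 32283672 to 32284486. No replicate 1 summit lay within 50 kb, a state shared with 38% of all protein-coding genes. Replicate 2 alone had 2 peaks there, both in Nprl3, a gene of amino acid sensing whose introns are known to hold enhancers of the alpha-globin genes. The stronger lay 61 bp inside the Nprl3 start, 16026 bp from Hba-a1 (fold enrichment 7.71, −log10 q 15.9, rank 84.5%). The weaker lay 45071 bp from Hba-a1 (4.52, 5.49, 47.2%). Whether either peak lies at such an enhancer was not tested. The nearest shared peak was 78271 bp from Hba-a1. The promoters of Hba-a1 and its copy Hba-a2 aligned with an identical run of 297 of 300 bases. Reads from such copies cannot be told apart, and the labels do not say how the authors treated reads with several matches. The part of this in the absence of peaks at Hba-a1 was not tested.

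The adult beta-globin genes Hbb-bs and Hbb-bt lie on the minus strand of chromosome 7, at 103826523 to 103827928 and 103812524 to 103813923. Neither replicate had a summit in or within 50 kb of either gene. Among all protein-coding genes 27.7% were in that state. The nearest summit of either replicate lay 372066 bp from Hbb-bs and 386071 bp from Hbb-bt, and the nearest shared peak 391314 and 405319 bp. The stretch between the flanking summits measured 1513 kb and held 90 protein-coding genes, of which 79 were olfactory receptor genes. It was longer than the stretch around 75.2% of the genes that had no summit inside them. The promoters of the 2 genes aligned with 70.6% identity, and the longest identical run was 14 bases. Taking the 7 other globin genes found in the table (Hba-x, Hba-a2, Hbq1a, Hbq1b, Hbb-bh1, Hbb-bh2 and Hbb-y), none had a gene-end summit in either replicate, against 45.5% of all genes in replicate 2 and 32.6% in replicate 1. These genes sit in the same 2 clusters and are not independent of the members.

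**Figure D3:**
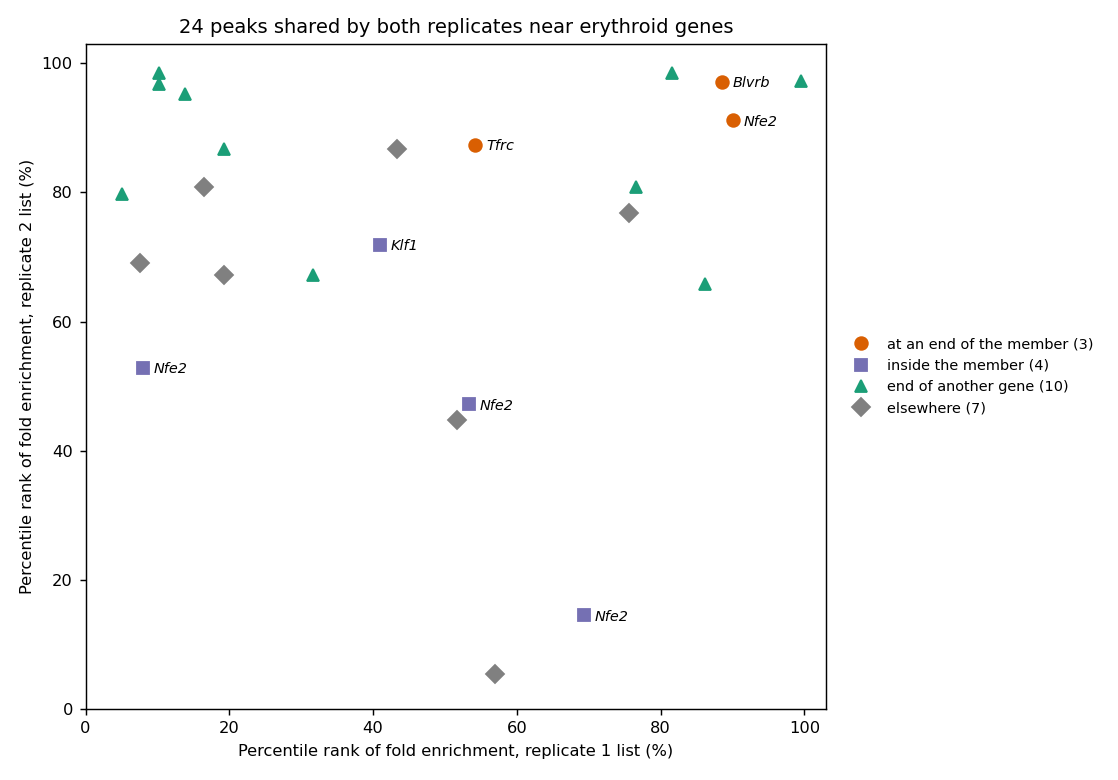
Percentile rank of fold enrichment in the replicate 1 list (x axis) and the replicate 2 list (y axis) for the 24 shared peaks of the territories, marked by place. The 3 peaks at members' own ends have ranks of at least 54.2% (replicate 1) and 87.4% (replicate 2). For the 10 peaks at ends of other genes the lowest ranks are 5.10% (replicate 1) and 65.9% (replicate 2), and the highest 99.5% and 98.5%. Median ranks in replicate 2 are close, 91.2% at own ends and 91.0% at ends of other genes.

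The shared peaks at own ends ranked between 54.2% and 90.0% in replicate 1 and between 87.4% and 97.1% in replicate 2. The 4 inside members (3 in Nfe2 and that of Klf1) ranked between 7.98% and 69.4%, and between 14.5% and 71.9%. The 10 at ends of other genes had a median rank of 25.5% in replicate 1 and 91.0% in replicate 2. All shared peaks of the 2 lists had median ranks of 52.5% and 77.6%.

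Further erythroid genes were listed by known role, though with earlier results of these data known. By the same rule 15 of 66 (22.7%) were called, against 31.9% of all protein-coding genes. Without replicate 1 the number was 32 of 66 (48.5%, against 45.5% of all genes). Of 22 transcription factor and cofactor genes 8 were called (36.4%). Mafk, a small Maf partner of NFE2, ranked highest (fold enrichment 5.71 in replicate 1 and 12.8 in replicate 2), followed by Klf3, a repressor related to KLF1 (4.90 and 9.57), with Gm38457 at the same peak. Next came Zfpm1, which encodes the GATA1 cofactor FOG1 (3.56 and 12.8), and Zbtb7a, a repressor of fetal globin (3.23 and 9.03). In replicate 2 alone 10 more had a gene-end summit, among them Gfi1b, Lmo2, Myb and Gata2, which made 18 of 22 (81.8%) in that replicate, against 45.5% of all genes. In replicate 1 the number was 9 (40.9%, against 32.6%). Under stricter rules for both replicates the share of the factor genes was not above that of all genes. With −log10 q of at least 5, 3 of 22 were called (13.6%, against 21.1%). With fold enrichment of at least 5 it was 1 of 22 (4.55%, against 9.52%), and with a 500 bp window 6 of 22 (27.3%, against 27.9%).

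A window of 3000 bp in place of 1000 bp raised the counts. Of all 66 further genes 29 were then called (43.9%, against 36.8% of all genes), so that their share, below that of all genes at 1000 bp, was above it. Among the factors 16 of 22 were called (72.7%). The 8 gained were Bcl11a, the fetal globin repressor gene, Cbfa2t3, Foxo3, Ikzf1, Lyl1, Myb, Stat5a and Stat5b. Since the rule does not require overlapping peaks, a gain need not rest on a shared peak. At Myb the nearest shared peak was 28086 bp from the gene. The iron and erythropoietin genes gained 4 of 17 (Fth1, Ireb2, Slc11a2 and Slc40a1), and the membrane genes 2 of 20 (Cd47 and Ermap). A gain of this kind occurred in 4.91% of all genes, and among the members in Klf1. Differences between the lists were not tested. Of the gained genes, Bcl11a, Stat5b and the membrane gene Cd47 each held 4 shared summits inside the gene, and Ikzf1 held 3. Gene length was not matched in these counts.

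Of 20 genes of the red cell membrane and its skeleton, 2 were called (10.0%, against 31.9% of all genes), the adducin gene Add1 (6.36 and 8.77) and the protein 4.1 gene Epb41 (2.49 and 7.86). The replicate 1 peak of Epb41 ranked low in its list, at 1.26% (−log10 q 2.03). Icam4, Slc2a1 and Xk had a gene-end summit in replicate 2 alone. The other 15 (75.0%), which included Sptb, Ank1, Rhag and Kel, had none in either replicate, against 53.8% of all genes, and neither had Slc4a1. Of 17 genes of erythropoietin signalling, iron handling and haem breakdown, 5 were called (29.4%, near the 31.9% of all genes). They were Bnip3l, a mitophagy receptor gene of maturing red cells (5.94 and 8.58), Hmox2 (4.81 and 5.31), the ferritin gene Ftl1 with its neighbour Gys1 (3.63 and 9.83), the iron-regulatory gene Aco1 (3.45 and 5.05) and the erythropoietin receptor kinase gene Jak2 (2.80 and 8.24). Jak2, with a replicate 1 peak of rank 5.65%, was called and Epor, the receptor gene, was not. The transferrin receptor gene Tfrc was called and its relative Tfr2 was not.

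**Figure D4:**
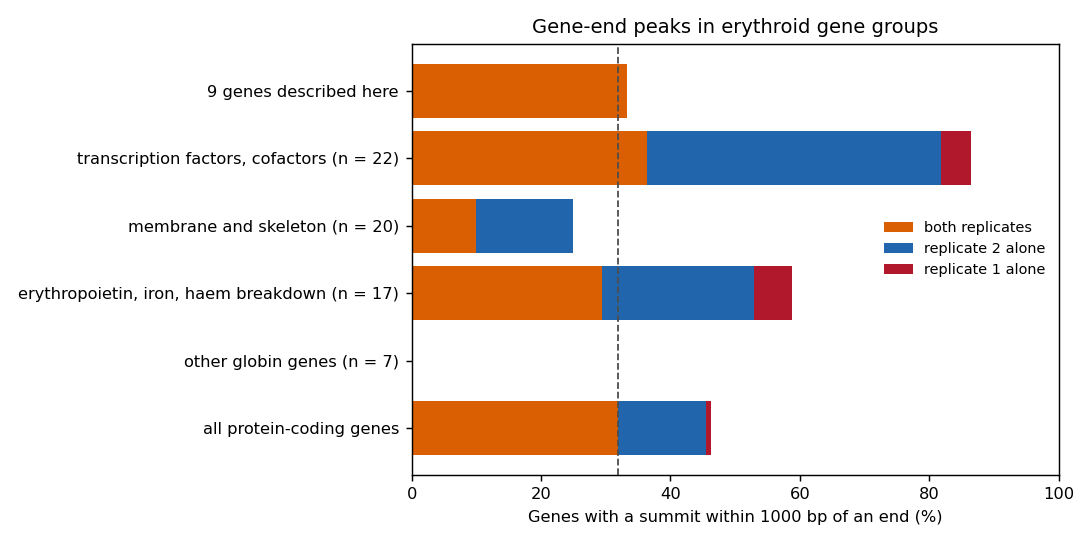
Percent of genes (x axis) with a summit within 1000 bp of a gene end in both replicates (orange), in replicate 2 alone (blue) or in replicate 1 alone (red), for the 9 genes, 4 further groups and all protein-coding genes. The dashed line marks 31.9%, the share of all genes called in both. The transcription factor group reaches 81.8% with replicate 2, and the globin group is at 0.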

How the data were processed

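Lineage-negative cells were fixed in 1% formaldehyde and libraries built with a transposase-based kit from 10 ng of DNA, per the labels' protocols. The submitters' processing notes name the build mm10, Bowtie2, MACS2, ChIPseeker, cutadapt, Trimmomatic and FastQC, without versions, control or cutoff. For each Flag ChIP library the authors deposited 1 peak list, called separately per the peak names. Its fold enrichment is a linear ratio, its −log10 p and −log10 q are those of the authors' caller (lowest −log10 q 1.31 and 1.30), and its score, which the authors deposited as well, was not used. No counts are held, so depth is unknown and no interval was given.

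Only peaks on the autosomes, X and Y entered. Summits were set against gene bounds of GRCm38.p6 and RefSeq start sites. No exon annotation or genome was used. Off the Y chromosome, 108 genes have listed coordinates below any peak and could not be called. Peaks of the 2 replicates were shared when they overlapped by at least 1 bp. Percentile ranks average ties. No statistical test was run, since the lists form 1 group of 2 and the genes and lists were chosen with earlier results of these data known. Counts are set beside the share of all genes. The text names every member, up to 4 called genes of each further list by the lower of their ranks in the 2 lists, all globin genes, and genes at described peaks. The fifth called iron gene, and genes named for lacking a call, for their number of peaks or for the 3000 bp window, were chosen after their values were seen. The code for the calls was checked on simulated peaks against a direct search. Calculations used Python 3.11.15, numpy 2.4.6, pandas 2.3.3, Biopython 1.88 and matplotlib 3.10.9.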

Additional observations from a re-analysis of the deposited data

How the results depend on the processing

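The 3 called members, Nfe2, Tfrc and Blvrb, were the same with −log10 q of at least 5, a 500 bp window, summits within 200 bp of each other, and either replicate alone (3 without replicate 1 and 3 without replicate 2). The number fell to 1 (Tfrc) when overlap had to cover 50% of both peaks, where the replicate 2 peaks of Nfe2 and Blvrb were over 2 times as wide as those of replicate 1 (1410 against 654 bp, and 1488 against 656 bp). It was 2 with fold enrichment of at least 5, where Tfrc was lost, and 4 with a 3000 bp window. Members with a shared peak within 50 kb numbered 5, and 3 with fold enrichment of at least 5. They numbered 7 without replicate 1 and 5 without replicate 2. The 15 further erythroid genes called (22.7%, against 31.9% of all genes) became 6 with −log10 q of at least 5 (9.09% against 21.1%), 3 with fold enrichment of at least 5 (4.55% against 9.52%) and 29 with a 3000 bp window (43.9% against 36.8%), where the list passed from below the share of all genes to above it. They were 32 without replicate 1 (48.5% against 45.5%) and 17 without replicate 2 (25.8% against 32.6%), so replicate 1 limits that count. The cause of these moves was not tested. No paired analysis was possible because every value used here comes from the Flag ChIP libraries, which form 1 group, and the input libraries that share their replicate numbers were not analysed here.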
